A study of Mus musculus with 6 samples.

Results

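The radial glia-like stem cell (RGL) identity genes described here were Sox2, Sox9, Pax6, Emx2, Tfap2c, Hopx, Nes, Lpar1 and Prom1. They were chosen by name as genes known to mark neural stem cells, with earlier results of these data known. Of these, 9 of 9 were found among the 37620 genes counted. RGLs of the adult dentate gyrus are glial cells with a radial process that rest for long periods and divide to renew themselves or to give rise to neurons. They keep the transcription factors of embryonic radial glia, among them the SOX, PAX and EMX factors, together with the filament protein nestin and membrane proteins by which such cells are isolated. Many of these identity genes are expressed both at rest and in division, while other genes mark quiescence, and replication and cell cycle genes mark activation. Klf9 is a Kruppel-like transcription factor that binds GC-rich DNA.

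Ribosome-bound mRNA was sequenced from 3 samples of Gli1CreERT2:Rpl22HA f/+:Klf9 +/+ mice and 3 samples of Gli1CreERT2:Rpl22HA f/+:Klf9 f/f mice. All groups carried the Gli1CreERT2 driver and the Rpl22HA allele, and all received 3 tamoxifen (TAM) injections 12 hr apart at 2 to 3 months of age. In this RiboTag assay Cre switches on a hemagglutinin (HA)-tagged RPL22 in Gli1+ cells, the tagged ribosomes are pulled down with an anti-HA antibody, and Cre also deletes exon 1 of the floxed Klf9 allele. The labels call the Klf9 f/f samples knock down, and the study reports that only some of the cells that Cre labels lose Klf9. It estimated this by in situ hybridization in reporter mice given less tamoxifen. From qRT-PCR it proposes a higher share in the targeted cells. Per sample, 3 mice gave a pool of 6 dentate gyri, collected 4 days after the final injection, so cells arising from a first division could also carry the tag. Replicates are therefore separate pools, and replicate numbers are running numbers that pair no samples.

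The library names placed replicates 1 and 2 of each genotype in library series 22 and replicate 3 of each genotype in library series 32. Between 21594714 and 66343759 reads per sample were counted on genes, and the 2 samples of library series 32 were the shallowest. In the other library series the counts exceeded the read number stated in the study's methods, and they were used as deposited. Levels are given as counts scaled to library size (CPM) after TMM scaling, a correction for differences in library composition. Of the 37620 genes, 15056 passed 1 CPM in at least 1 sample and were tested with edgeR's quasi-likelihood test with genotype and library series as terms. A gene was called at a fold change of 1.2 or more with an unadjusted p under 0.05, after the study's methods. Positions of genes are those of mm9. Adjusted p-values follow Benjamini and Hochberg over all 15056 genes. The 9 identity genes all passed the filter, with levels far above it in every sample. For Klf9 itself the CPM were 201, 204 and 139 in Klf9 +/+ against 114, 121 and 120 in Klf9 f/f, in replicate order. All Klf9 f/f samples lay below all Klf9 +/+ samples, an order that 1.35% of all genes showed. The log2 fold change of Klf9 was -0.59 (SE 0.15), with an adjusted p of 0.844 in edgeR's quasi-likelihood test. The Klf9 count covers 2 annotated exon blocks and Cre deletes exon 1 only, so reads on the kept exon could still be counted.

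None of the 9 identity genes was called in Klf9 f/f. In the same comparison 650 of 15056 genes, 4.32%, were called, 274 higher and 376 lower, and 0 genes had an adjusted p under 0.05 in edgeR's quasi-likelihood test, against 39 by DESeq2 and 58 by the likelihood-ratio test. The log2 fold changes of the identity genes, Klf9 f/f over Klf9 +/+, ran from -0.11 for Nes to 0.25 for Sox9, with a median of 0.06 against 0.00 for all genes tested. The 95% intervals of the 9 changes lay between 0.66-fold, the lower bound of Nes, and 1.47-fold, the upper bound of Sox9. Changes beyond those bounds lay outside all 9 intervals. The bounds come from different genes, and each gene's own interval, given below, is narrower. Every interval included no change, so a change inside a gene's own interval could not be told from none at this replication.

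**Figure D1:**
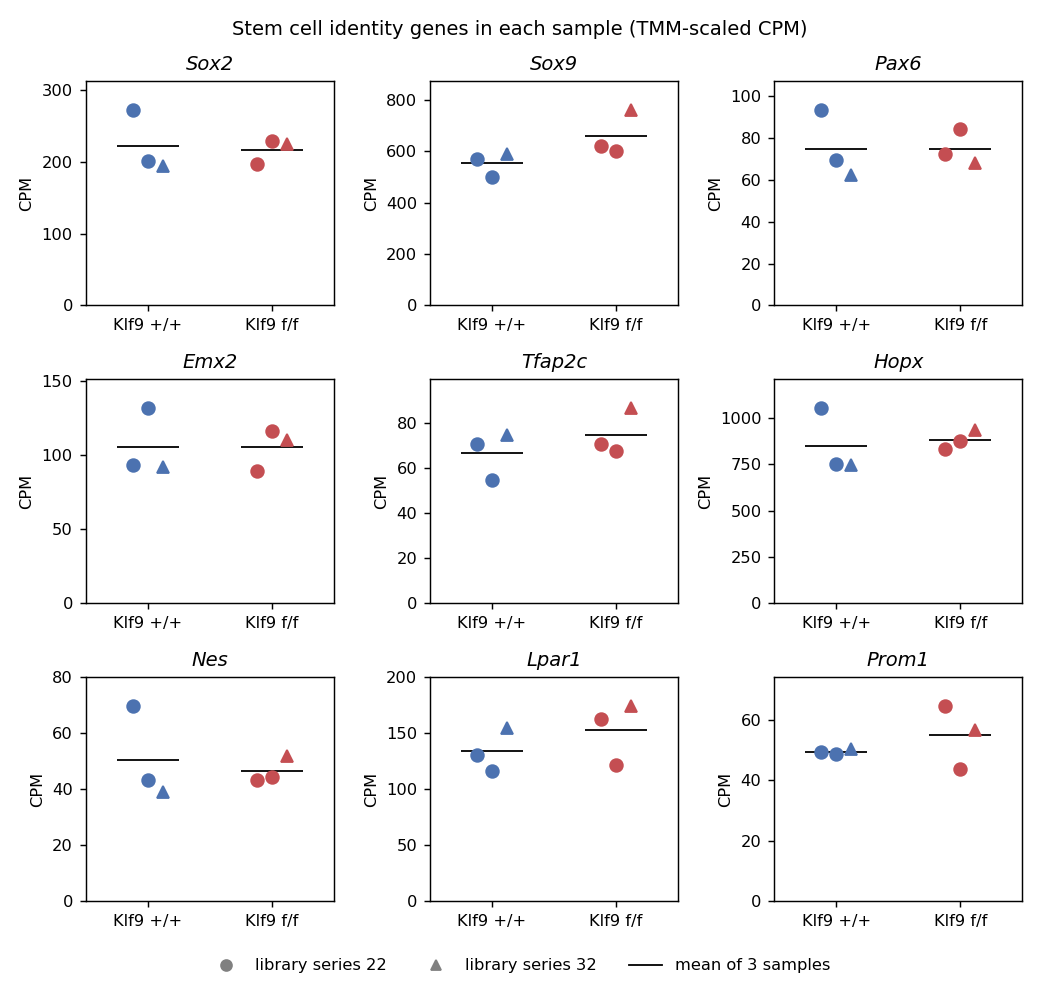
TMM-scaled CPM of each identity gene in the 3 Klf9 +/+ samples (blue) and the 3 Klf9 f/f samples (red), with the group mean as a line, circles for library series 22 and triangles for library series 32. The groups overlap in 8 of 9 panels, and in the Sox9 panel the 3 Klf9 f/f samples, at 602 to 758 CPM, sit above the 3 Klf9 +/+ samples, at 501 to 588 CPM.

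Sox2 (ENSMUSG00000074637, chromosome 3, 34548927 to 34551383, plus strand) encodes an HMG-box factor that maintains neural stem cells. In replicate order, its CPM were 271, 201 and 194 in Klf9 +/+, and 197, 228 and 224 in Klf9 f/f. The groups overlapped, and the highest and the lowest of the 6 samples were both Klf9 +/+. The log2 fold change was -0.03 (SE 0.16, 95% interval -0.40 to 0.33, unadjusted p = 0.848 in edgeR's quasi-likelihood test). With the choroid plexus level as a covariate it was -0.63, and Sox2 was called (unadjusted p = 0.041, adjusted p = 0.801 in edgeR's quasi-likelihood test). That fit called 6.15% of all genes, against 4.32% without the covariate. Here and below, a level used as a covariate is the mean log2 CPM of a marker list.

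Sox9 (ENSMUSG00000000567, chromosome 11, 112643538 to 112649074, plus strand), an HMG-box factor of neural stem cells that mature astrocytes also carry, was at 568, 501 and 588 CPM in Klf9 +/+ against 621, 602 and 758 CPM in Klf9 f/f, in replicate order. It was the 1 identity gene whose groups did not overlap, and 2.03% of all genes tested likewise had every Klf9 f/f sample above every Klf9 +/+ sample. For 0 of 9 identity genes did all Klf9 f/f samples lie below, against 1.35% of all genes. The log2 fold change was 0.25 (SE 0.13, 95% interval -0.05 to 0.56), with an unadjusted p of 0.0943 and an adjusted p of 1.00 in edgeR's quasi-likelihood test. An exact permutation test gave p = 0.1 (two-sided), the smallest that 3 samples against 3 allow. Summed over 12 astrocyte markers such as Aqp4 and Aldh1l1, the level ranged from 5227 to 7403 CPM in Klf9 +/+ and from 6044 to 7770 CPM in Klf9 f/f. Of these markers, 12 of 12 had a log2 fold change above 0, against 7553 of 15056 genes tested. For 3 of 12 the call was higher, against 1.82% of all genes. With the mean log2 CPM of the astrocyte markers as a covariate the log2 fold change of Sox9 was 0.18. With that of choroid plexus markers it was 0.02. In bulk samples, fewer cells of a type and less RNA per cell cannot be told apart.

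Pax6 (ENSMUSG00000027168, chromosome 2, 105509053 to 105543317, plus strand), a paired-box and homeobox factor of radial glia, was at 93.1, 69.1 and 62.1 CPM in Klf9 +/+ against 72.2, 84.3 and 67.8 CPM in Klf9 f/f. Its Klf9 f/f samples lay within the range of the Klf9 +/+ samples. Its log2 fold change was 0.01 (SE 0.15, 95% interval -0.34 to 0.35), and its sign turned under 11 of 17 alternative settings. Pax6 shares 27.9% of its annotated exon bases with Elp4 on the opposite strand, and reads there, counted without strand, fit both genes. HTSeq sets such reads aside on its ambiguous line, 1.35% to 2.64% of each file's total, which was left out. The Pax6 count therefore lacks them.

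Emx2 (ENSMUSG00000043969, chromosome 19, 59533180 to 59539847, plus strand), a homeobox factor of the developing hippocampus, was at 93.4, 132 and 92.4 CPM in Klf9 +/+ against 89.7, 116 and 110 CPM in Klf9 f/f. Klf9 f/f differed from Klf9 +/+ by a log2 fold change of -0.00 (SE 0.18, 95% interval -0.40 to 0.40). Emx2 was highest in Klf9 +/+ replicate 2 and lowest in Klf9 f/f replicate 1. The same samples had the highest and the lowest sum over 14 genes of neurogenic progeny, at 4667 and 1592 CPM, and the part of these cells in the Emx2 level was not tested.

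Tfap2c (ENSMUSG00000028640, chromosome 2, 172375093 to 172384122, plus strand), an AP-2 factor expressed in RGLs and in neurogenic progenitors, was at 70.4, 54.7 and 74.7 CPM in Klf9 +/+ against 70.7, 67.3 and 86.5 CPM in Klf9 f/f. The Klf9 +/+ range reached above 2 of the 3 Klf9 f/f samples. On the log2 scale the fold change was 0.16 (SE 0.14, 95% interval -0.15 to 0.48).

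Hopx (ENSMUSG00000059325, chromosome 5, 77515468 to 77544186, minus strand) encodes a small homeodomain protein that does not itself bind DNA and that marks quiescent stem cells in several tissues. It had the highest CPM of the 9 genes, with 1050, 751 and 745 CPM in Klf9 +/+ and 833, 873 and 932 CPM in Klf9 f/f. The 3 Klf9 f/f samples lay inside the Klf9 +/+ range, at a mean of 849 ± 175 CPM in Klf9 +/+ (SD, n = 3). Its log2 fold change was 0.06 (SE 0.17, 95% interval -0.33 to 0.44). Hopx shares 19.5% of its annotated exon bases with the processed transcript Gm15830 on the other strand, so its count lacks reads there in the same way.

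Nes (ENSMUSG00000004891, chromosome 3, 87775000 to 87784373, plus strand) encodes nestin, the intermediate filament protein of neural stem and progenitor cells. It was at 69.6, 43.2 and 38.9 CPM in Klf9 +/+ against 43.2, 44.2 and 51.9 CPM in Klf9 f/f. Klf9 +/+ replicate 1 lay above the 5 other samples, and the ratio of the highest to the lowest sample, 1.79, was the largest among the 9 genes. The log2 fold change was -0.11 (SE 0.22, 95% interval -0.60 to 0.38), and without Klf9 +/+ replicate 1 it was 0.18. Nestin is also made by blood vessel cells, and the summed level of 14 endothelial and mural markers was highest in the same sample, at 743 CPM. By mean log2 CPM these markers were instead highest in Klf9 +/+ replicate 3, at 4.60 against 4.39 in Klf9 +/+ replicate 1. In Klf9 +/+ replicate 3 Nes was at its lowest. Their sum ranged from 242 to 743 CPM in Klf9 +/+ and from 158 to 363 CPM in Klf9 f/f. Of these markers, 14 of 14 had a log2 fold change under 0, against 7503 of 15056 genes tested. For 5 of 14 the call was lower, against 2.5% of all genes. With the mean log2 CPM of these markers as a covariate the log2 fold change of Nes was 0.03. With the choroid plexus level as a covariate it was -1.05, and Nes was called (unadjusted p = 0.0062, adjusted p = 0.727 in edgeR's quasi-likelihood test), as were 6.15% of all genes. The part of blood vessel cells in the Nes level was not tested.

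Lpar1 (ENSMUSG00000038668, chromosome 4, 58448127 to 58566770, minus strand) encodes a receptor for lysophosphatidic acid by which adult hippocampal stem and progenitor cells can be labelled, and oligodendrocytes carry it too. It was at 131, 116 and 154 CPM in Klf9 +/+ against 163, 121 and 174 CPM in Klf9 f/f. The groups overlapped in library series 22, and the log2 fold change was 0.19 (SE 0.15, 95% interval -0.14 to 0.52). With the mean level of oligodendrocyte markers as a covariate, the log2 fold change of Lpar1 was 0.23. With the endothelial and mural level it was 0.42, and Lpar1 was called (unadjusted p = 0.030, adjusted p = 0.409 in edgeR's quasi-likelihood test), as were 10.3% of all genes. With the astrocyte level the log2 fold change of Lpar1 was 0.03.

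Prom1 (ENSMUSG00000029086, chromosome 5, 44384864 to 44493271, minus strand) encodes prominin-1 (CD133), a pentaspan membrane protein of apical processes and primary cilia. It was at 49.2, 48.5 and 50.3 CPM in Klf9 +/+ against 64.4, 43.7 and 56.5 CPM in Klf9 f/f. The Klf9 +/+ samples lay within a narrow band, while both the highest and the lowest of the 6 samples were Klf9 f/f of library series 22. The log2 fold change was 0.15 (SE 0.16, 95% interval -0.21 to 0.51). Its exons share 4.16% of their bases with Gm16401 on the opposite strand. Ependymal cells make Prom1 as well, and the sum of 8 ependymal markers was 26.0 to 70.5 CPM in Klf9 +/+ and 30.7 to 40.7 CPM in Klf9 f/f. Of these markers, 8 of 8 had a log2 fold change under 0, against 7503 of 15056 genes tested. For 3 of 8 the call was lower, against 2.5% of all genes. The part of ependymal cells in the Prom1 level was not tested.

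The identity genes were deeply sampled. The smallest count of any of them in a sample was 1167, for Nes, and the smallest count of Hopx was 20954. The coefficient of variation from counting alone at these counts was 2.93% for Nes and 0.69% for Hopx, well under the spread between samples. The SD of log2 CPM over the 6 samples was 0.18 to 0.30, with a median of 0.22, against 0.27 over the 10381 genes with a mean of 10 CPM or more.

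Per length, the order of the levels was Hopx, Sox9, Sox2, Emx2, Lpar1, Tfap2c, Prom1, Nes and Pax6. In TPM, which scales counts to exon length and library and was computed from the union of annotated exons, Hopx had a mean of 1077 ± 157, Sox9 of 389 ± 97.0 and Sox2 of 233 ± 29.1 (SD, n = 6). The range over samples of each of these 3 genes lay apart from that of the next gene in the order. Emx2 was at 103 ± 18.6, Lpar1 at 89.3 ± 25.4, Tfap2c at 51.2 ± 13.4, Prom1 at 30.5 ± 6.69 and Nes at 19.7 ± 3.78 TPM (SD, n = 6), and in this stretch the ranges of neighbours overlapped. Pax6 was last at 9.78 ± 0.70 TPM, below the range of Nes. The lower ranks depended on the length used, since the annotated exons of Pax6 add up to 19833 bp. Of these, 5542 bp are shared with other genes, where reads were set aside as ambiguous, so its TPM is biased low. For Hopx and Prom1 the shared lengths are 410 of 2099 bp and 188 of 4517 bp. With the longest coding transcript, which was chosen after seeing the data, Pax6 was at 18.3 TPM against 16.4 TPM for Nes with overlapping ranges, and Lpar1 stood before Emx2. Hopx lay above 99.4% of the genes tested and Pax6 above 38.5% by the first measure.

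The comparison was next made within each library series. In library series 22, with 2 samples per genotype, the log2 difference between Klf9 f/f and Klf9 +/+ was -0.33 for Nes, -0.14 for Sox2, -0.12 for Emx2, -0.06 for Hopx and -0.04 for Pax6. For Prom1, Tfap2c, Lpar1 and Sox9 it was 0.12, 0.15, 0.19 and 0.20. In library series 32, with 1 sample per genotype and hence no replicate check, all 9 differences were above 0, from 0.13 for Pax6 to 0.42 for Nes. Sox9 was the 1 identity gene with Klf9 f/f above Klf9 +/+ in every sample of both series, an order that 7.78% of all genes tested showed, and 0 of 9 showed the reverse order, against 5.53% of all genes. The difference between the series was tested as an interaction with edgeR's quasi-likelihood test, which called 0 of 9 identity genes and 0 of 15056 genes at an adjusted p under 0.05. At an unadjusted p under 0.05 it found 1.53% of all genes and 0 of 9 identity genes, and the smallest p among them was 0.0901, for Nes. Averaged over the 9 genes, log2 CPM was 7.09 ± 0.14 in Klf9 +/+ and 7.18 ± 0.09 in Klf9 f/f (SD, n = 3), with differences of -0.00 in library series 22 and 0.25 in library series 32.

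Library series itself moved many genes. Between library series 32 and 22, 4444 of 15056 genes, 29.5%, had an adjusted p under 0.05 in edgeR's quasi-likelihood test, and among the identity genes the number was 0 of 9. Their log2 differences, series 32 over series 22, ran from -0.29 for Pax6 to 0.31 for Lpar1, and the smallest adjusted p was 0.156, for Lpar1. Of 20 other stem cell and radial glia genes tested, 9 passed, 6 higher in series 32 and 3 lower. Gli1, the gene whose promoter drives the Cre, differed by 1.13 and the RNA-binding protein gene Msi1 by 1.38, while Fabp7, a fatty acid binding protein gene of radial glia, differed by -1.27. These 3 were chosen after their values were seen. The genotype term of each identity gene was estimated beside this series term, and both genotypes were in each series.

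**Figure D2:**
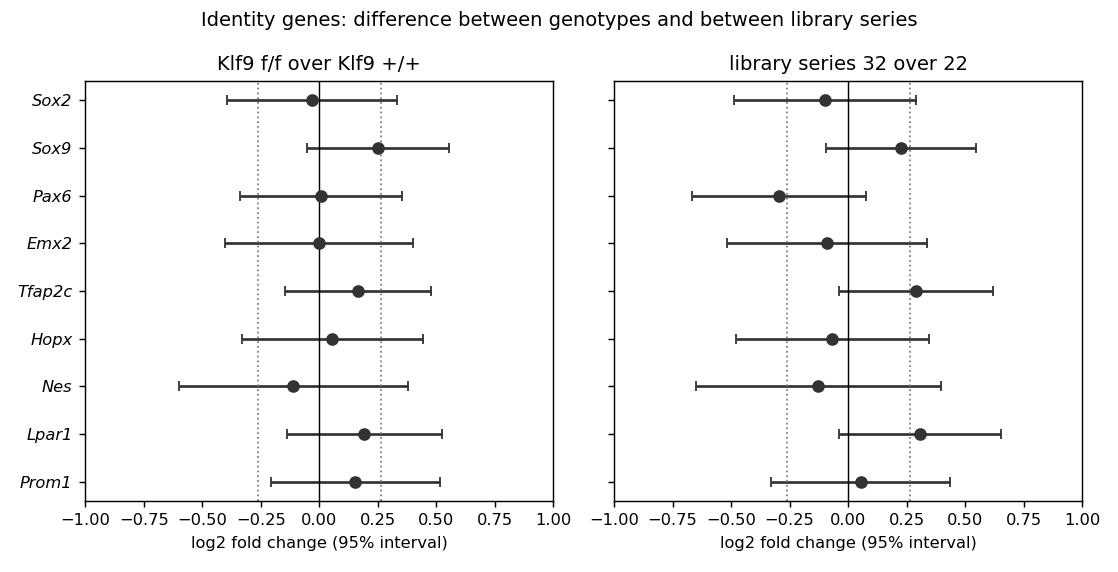
Log2 fold change of each identity gene with its 95% interval between Klf9 f/f and Klf9 +/+ (left) and between library series 32 and 22 (right), from the fit over all 6 samples. Dotted lines mark a fold change of 1.2 in either direction, and each of the 18 intervals includes 0.

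Across the 6 samples, the identity genes fell into different orders. Sox2, Pax6, Hopx and Nes were highest in Klf9 +/+ replicate 1 and lowest in Klf9 +/+ replicate 3. Sox9, Tfap2c and Lpar1 were highest in Klf9 f/f replicate 3 and lowest in Klf9 +/+ replicate 2. Likeness was measured as the root mean square (RMS) distance between log2 CPM profiles over the 6 samples, each centred on its own mean, so that a smaller value means a closer pattern. Sox2 and Hopx were the closest pair, at 0.07, followed by Sox9 and Tfap2c at 0.08 and Pax6 and Sox2 at 0.10. Emx2 stood farthest from the others, with its nearest, Sox2, at 0.27. Among 10380 other genes with a mean of 10 CPM or more, the nearest to Pax6 was Nos1ap at 0.03, and those nearest to Lpar1, Tfap2c, Sox9, Hopx and Prom1 were Ppargc1a, Vcp, Adora1, Jun and Mcm3, each at 0.04. For Emx2, Sox2 and Nes they were Hist1h1c, Negr1 and Pigt, each at 0.05. The 6 samples differ in library series and depth, which all these genes share, and the distances carry no test.

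Because Sox2 and Hopx had the closest patterns, the 250 bases upstream of their RefSeq transcription starts are shown, read in the 5′ to 3′ direction from RefSeq on GRCm38.p6, on the strand of the gene. Both strands were searched for GGGCGG (GC box) and for CACCC, the letters of sites that Kruppel-like factors can bind, and capitals mark a match. Sox2 at chr3:34649745-34649994 on the plus strand had 2 GC boxes and 0 CACCC matches. The Hopx starts, at chr5:77095268-77095517 and chr5:77115124-77115373 on the minus strand, had 0 matches of either kind.
Sox2: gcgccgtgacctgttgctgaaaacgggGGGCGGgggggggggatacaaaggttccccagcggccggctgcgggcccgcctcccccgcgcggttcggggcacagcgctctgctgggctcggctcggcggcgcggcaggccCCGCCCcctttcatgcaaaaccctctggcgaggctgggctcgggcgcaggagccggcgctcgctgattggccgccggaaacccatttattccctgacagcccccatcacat
Hopx first start: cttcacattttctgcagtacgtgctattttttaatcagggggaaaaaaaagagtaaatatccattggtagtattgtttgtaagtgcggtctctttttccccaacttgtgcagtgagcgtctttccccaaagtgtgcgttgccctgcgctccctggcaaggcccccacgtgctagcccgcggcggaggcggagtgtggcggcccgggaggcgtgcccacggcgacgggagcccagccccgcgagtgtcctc
Hopx second start: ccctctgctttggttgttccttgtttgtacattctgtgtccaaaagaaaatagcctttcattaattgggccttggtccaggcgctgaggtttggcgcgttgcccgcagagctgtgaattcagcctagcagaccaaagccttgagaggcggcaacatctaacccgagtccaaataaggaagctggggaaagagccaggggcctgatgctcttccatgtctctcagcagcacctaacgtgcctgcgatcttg
In all, 7 of 9 identity genes had an entry in the table, with 12 starts, of which 6 held a GC box and 5 a CACCC match. Over all 32817 starts of the table, 32.7% held a GC box and 52% a CACCC match within the same length. A match describes letters only, and no binding was measured in these samples.

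The other genes of the stem cell program were read against the identity genes from lists written from general knowledge. Earlier results of these data were known when the lists were written, so the lists are not independent of the data. Of the 20 other stem cell and radial glia genes, 2 were called higher and 0 lower, against 1.82% and 2.5% of all genes tested. Vnn1, a pantetheinase gene, rose by a log2 fold change of 0.42 (SE 0.16), from 13.0 ± 2.79 to 17.1 ± 1.41 CPM (SD, n = 3). Gfap, the intermediate filament of RGLs and astrocytes, rose by 0.43 (SE 0.18), from 2392 ± 641 to 3197 ± 883 CPM (SD, n = 3). Slc1a3, the glutamate transporter GLAST and the highest gene of the list, had a log2 fold change of 0.39 (SE 0.18) and was not called. The median over the 20 genes was 0.16, and 19 of 20 were above 0, against 7553 of 15056 genes tested. The adjusted p of both called genes was 1.00 in edgeR's quasi-likelihood test. The call of Vnn1 was lost without Klf9 +/+ replicate 1 (0.43), Klf9 +/+ replicate 3 (0.29) or Klf9 f/f replicate 3 (0.30), without the series term (0.40), and with the choroid plexus (0.36), endothelial and mural (0.38) or astrocyte (0.38) level as a covariate. That of Gfap was lost without Klf9 f/f replicate 1 (0.25), Klf9 +/+ replicate 2 (0.35), Klf9 +/+ replicate 3 (0.45) or Klf9 f/f replicate 3 (0.45), without the series term (0.42), and with the choroid plexus (0.33) or astrocyte (0.22) level as a covariate.

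Of 25 quiescence genes, 3 were called higher, 1 was called lower and 21 were not called, against 1.82% and 2.5% of all genes called higher and lower, and the median of their log2 fold changes was 0.04. The 3 higher genes were Cpe, Aldoc and Clu, which encode carboxypeptidase E, the glycolytic enzyme aldolase C and the secreted chaperone clusterin, and astrocytes express all 3. Cpe rose by 0.43 (SE 0.17), Aldoc by 0.43 (SE 0.17) and Clu by 0.41 (SE 0.18) on the log2 scale. Aldoc was at 5611, 4128 and 3128 CPM in Klf9 +/+ against 6097, 6205 and 4800 CPM in Klf9 f/f, and with the choroid plexus level as a covariate its log2 fold change was -0.11. The summed level of 12 choroid plexus markers such as Ttr was 268, 993 and 4111 CPM in Klf9 +/+ and 191, 110 and 778 CPM in Klf9 f/f. Of these markers, 12 of 12 were called lower, against 2.5% of all genes. The calls of Cpe, Aldoc and Clu were each lost without the series term and when certain single samples were left out. The call of Clu was also lost with upper-quartile scaling (0.40), with edgeR's filterByExpr filter (0.41) and with the oligodendrocyte level as a covariate (0.41). That of Cpe was lost without Klf9 +/+ replicate 2 (0.41), Klf9 +/+ replicate 3 (0.33), Klf9 f/f replicate 1 (0.36) or Klf9 f/f replicate 3 (0.33), and that of Clu without the same samples, at 0.35, 0.26, 0.35 and 0.27. Aldoc was not called without Klf9 +/+ replicate 2 (0.34), Klf9 +/+ replicate 3 (0.33), Klf9 f/f replicate 2 (0.45) or Klf9 f/f replicate 3 (0.34). With the astrocyte level as a covariate Cpe, Clu and Aldoc were at 0.25, 0.18 and 0.31 and none of the 3 was called, and with the choroid plexus level Cpe was at 0.21 and Clu at -0.02. Apoe, the lipid carrier and the highest gene of the list, had a log2 fold change of 0.24 and was not called. Cdkn1c, which encodes the cell cycle inhibitor p57, was at 39.8, 35.2 and 85.4 CPM in Klf9 +/+ against 26.4, 23.2 and 40.4 CPM in Klf9 f/f. Its samples separated within both library series, and it fell by 0.76 on the log2 scale (SE 0.15, adjusted p = 0.474 in edgeR's quasi-likelihood test). Its call held with each sample left out in turn and was lost with the choroid plexus level as a covariate (-0.71) and without the series term (-0.84).

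Of 25 activation genes, 1 was called higher and 0 lower, a share near the 4.32% called among all genes. Their median log2 fold change was 0.06, and 18 of 25 were above 0, against 7553 of 15056 genes tested. The called gene was Egfr, the epidermal growth factor receptor gene, at 40.9, 36.1 and 32.9 CPM in Klf9 +/+ against 52.9, 39.4 and 51.3 CPM in Klf9 f/f (log2 fold change 0.39, SE 0.16). The study reported higher Egfr by qRT-PCR on separately isolated ribosome-bound mRNA. It also named Egfr from these libraries, so the place of Egfr in the list is not independent evidence. The call was lost with the astrocyte (0.18) or choroid plexus (0.15) level as a covariate, without the series term (0.39) and without Klf9 +/+ replicate 2 (0.37), Klf9 +/+ replicate 3 (0.26), Klf9 f/f replicate 1 (0.30) or Klf9 f/f replicate 3 (0.26). The highest genes of the list, Ccnd2 and Cdk4, which encode cyclin D2 and its kinase partner, had log2 fold changes of 0.06 and -0.05 and were not called. Between the library series, 7 of 25 activation genes were lower in series 32 and 0 higher, against 16.6% and 12.9% of all genes.

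Set against each other in each sample, the mean log2 CPM of the 25 quiescence genes exceeded that of the 25 activation genes by 0.36, 0.32 and 0.70 in Klf9 +/+ replicates 1, 2 and 3. In Klf9 f/f replicates 1, 2 and 3 the excess was 0.26, 0.33 and 0.68. The 2 samples of library series 32 stood apart from the other samples in both genotypes. The mean was 0.46 ± 0.21 in Klf9 +/+ and 0.42 ± 0.23 in Klf9 f/f (SD, n = 3), and within series 22 and series 32 the genotypes differed by -0.05 and -0.02. The ranges of the genotypes overlapped in series 22, and series 32 has no replicate to set its difference against.

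Beyond the stem cell, 13 of 14 genes of neurogenic progeny had a log2 fold change under 0, against 7503 of 15056 genes tested. Their median was -0.33, and 1 of 14 was called lower, against 2.5% of all genes. The mean log2 CPM of the list differed between the genotypes by -0.56 in library series 22 and -0.01 in library series 32. In replicate order it was 7.20, 7.99 and 7.17 in Klf9 +/+ and 6.51, 7.56 and 7.16 in Klf9 f/f, so the groups overlapped. The called gene was Neurod4, a basic helix-loop-helix factor of neuron precursors that the study also named from these libraries. It fell by 0.62 on the log2 scale (SE 0.23), from 52.4, 82.0 and 58.3 CPM in Klf9 +/+ to 30.2, 52.0 and 42.8 CPM in Klf9 f/f. Without Klf9 +/+ replicate 2 (-0.39) or Klf9 f/f replicate 1 (-0.40) it was not called, nor with the choroid plexus level (-0.17) or the astrocyte level (-0.31) as a covariate. The highest genes of this list, Sox4 and Calb2, which encode an HMG-box factor and calretinin, had log2 fold changes of -0.14 and -0.57 and were not called. Granule neuron markers summed to 1245 to 1512 CPM in Klf9 +/+ and to 1290 to 1458 CPM in Klf9 f/f. Of these markers, 0 of 12 were called, against 4.32% of all genes.

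**Figure D3:**
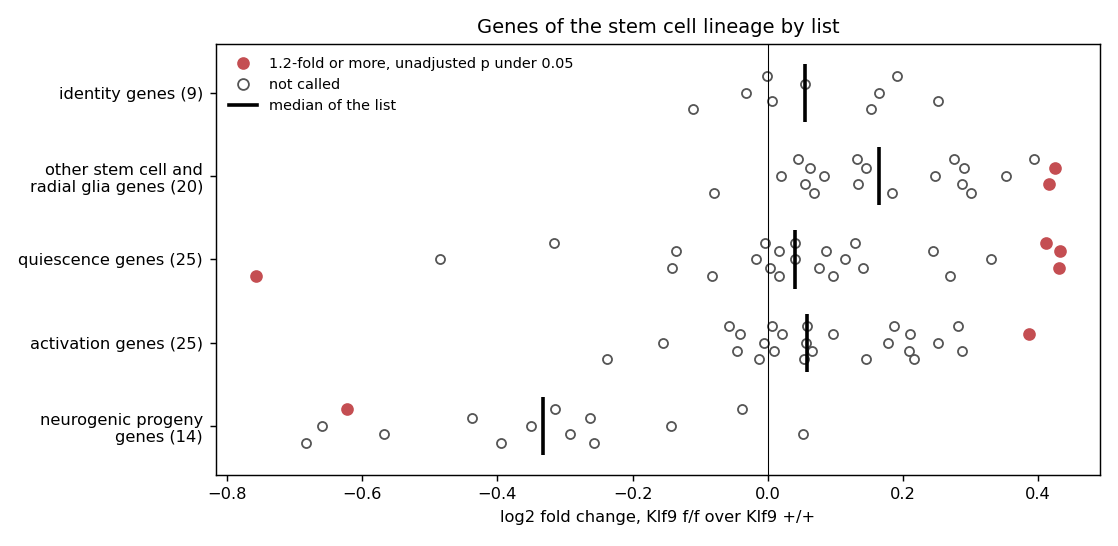
Log2 fold change, Klf9 f/f over Klf9 +/+, of each gene of the identity, other stem cell and radial glia, quiescence, activation and neurogenic progeny lists, with the number of genes tested in parentheses, called genes filled and the list median as a bar. The medians are 0.06, 0.16, 0.04, 0.06 and -0.33 from top to bottom, and no identity gene is filled.

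**Figure D4:**
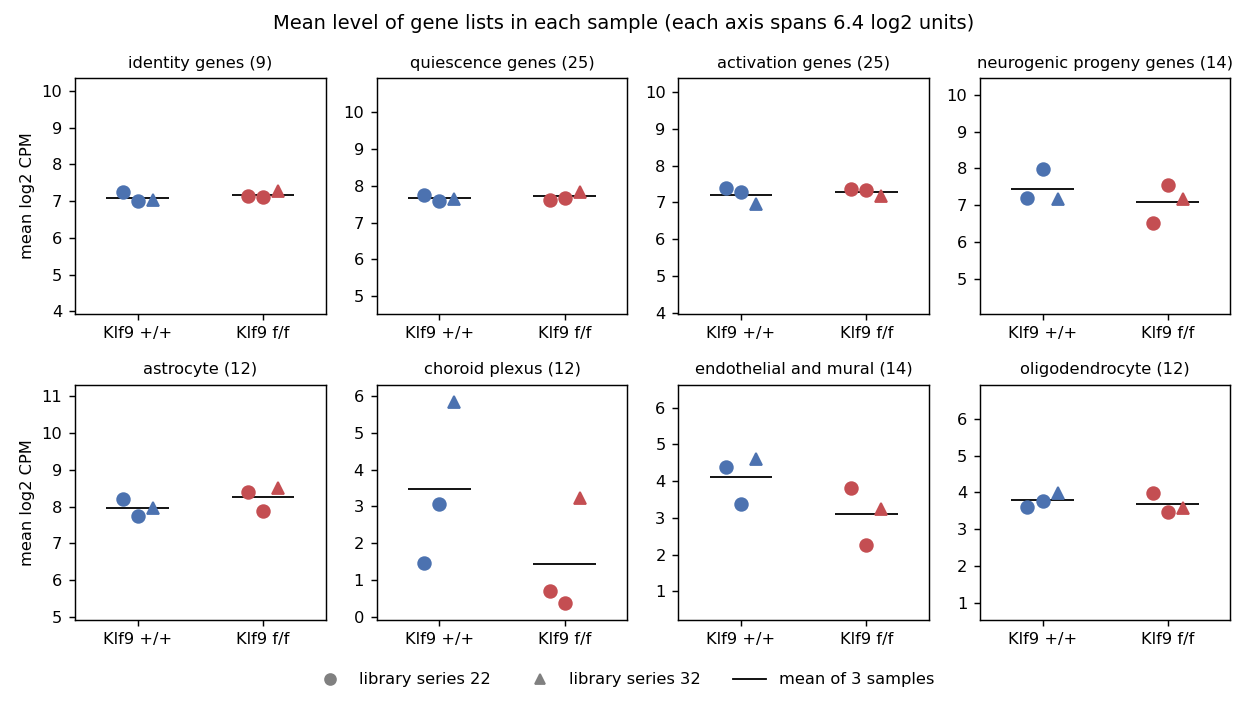
Mean log2 CPM of 8 gene lists in each of the 6 samples, with circles for library series 22, triangles for library series 32 and a line at the mean of the 3 samples of a genotype, every axis spanning the same number of log2 units. The identity genes average 7.09 in Klf9 +/+ and 7.18 in Klf9 f/f, while choroid plexus markers average 3.46 and 1.43, and endothelial and mural markers 4.12 and 3.10.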

How the data were processed

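Ribosome-bound mRNA was measured in 3 Klf9 +/+ and 3 Klf9 f/f samples, grouped by the genotype in their labels. Per the methods, the authors mapped 50 bp reads to mm9 with STAR, counted them per gene with HTSeq without strand, and deposited whole-number counts with no normalization. Gene names came from GENCODE M1 and covered 37205 of 37620 genes; HTSeq summary lines, 16.4% to 26.6% of each file's total, were left out. Depth was 21594714 to 66343759 counts.

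Genes that exceeded 1 CPM in 1 sample or more were fitted by glmQLFit and glmQLFTest of edgeR 4.0.16 (R 4.3.3) after TMM scaling, with genotype and library series as terms. SE was the log2 fold change over the square root of F, and log2 CPM used a prior count of 2. The script was first tested on simulated data.

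The identity genes and lists were chosen with earlier results of these data known. By a fixed rule, genes named were the identity genes, Klf9, up to 4 called genes per list and direction, the 2 highest genes of each list, and the nearest gene of each identity gene; Gli1, Msi1 and Fabp7 were added after their values were seen, and marker genes are named only as examples of their lists. Besides the lists reported above, interneuron, meningeal, oligodendrocyte precursor, and microglia and blood markers were tested. In that order 0 of 10, 3 of 12, 1 of 8 and 2 of 11 were called, against 4.32% of all genes. The meningeal and the microglia and blood calls were lower in Klf9 f/f, and the oligodendrocyte precursor call was higher. The counts and summed level of the oligodendrocyte list are not reported here. Alternatives were upper-quartile scaling, DESeq2 1.42.0, the likelihood-ratio test, other filters, no series term, series 22 alone and each sample left out. Covariates for 4 marker lists, each the mean log2 CPM of the list, and other scalings of the level were also used. Figures were drawn with matplotlib 3.10.9.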

Additional observations from a re-analysis of the deposited data

How the results depend on the processing

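Of the identity genes, 0 were called under 15 of 17 alternatives. With the choroid plexus level as a covariate 2 were called, Nes at -1.05 and Sox2 at -0.63 on the log2 scale, and with the endothelial and mural level 1, Lpar1 at 0.42. These fits called 6.15% and 10.3% of all genes, against 4.32% in the report. The choroid plexus level itself differed with both terms of the fit. Of its 12 markers, 12 were called lower in Klf9 f/f, against 2.5% of all genes. All 12 were higher in series 32 at an adjusted p under 0.05 in edgeR's quasi-likelihood test, against 12.9% of all genes. Sox9 kept its sign in 17 of 17, from 0.02 to 0.32, and Klf9 its sign and its call, from -0.80 to -0.51. No sample left out gave a called identity gene (0 to 0). Without either sample of series 32, the series term takes up the other, and the contrast rests on series 22.

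Signs turned as follows. Pax6 was at -0.0053 with upper-quartile scaling, -0.0028 by DESeq2, -0.00045 without the series term, -0.059 in series 22 alone, -0.52, -0.056 and -0.048 with the choroid plexus, oligodendrocyte and astrocyte levels, and -0.095 to 0.16 with a sample left out. Hopx was at -0.085 in series 22 alone, -0.58, -0.0027 and -0.074 with those 3 levels, and -0.085 to 0.24 with a sample left out. Emx2 was at 0.32 and 0.17 with the choroid plexus and astrocyte levels, and -0.13 to 0.19 with a sample left out. With the choroid plexus level Tfap2c was at -0.20, Aldoc at -0.11 and Clu at -0.020, with the astrocyte level Prom1 was at -0.024, and with the endothelial and mural level Nes was at 0.034. Left-out samples gave -0.16 to 0.14 for Sox2, -0.37 to 0.18 for Nes and -0.021 to 0.30 for Prom1. The cause was not tested.

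Quiescence calls, 4 in the report, were 0 without the series term, 1 in series 22 alone, 9 with the endothelial and mural level and 1 to 6 with a sample left out (1 without Klf9 +/+ replicate 3 or Klf9 f/f replicate 3, 2 without Klf9 +/+ replicate 2 or Klf9 f/f replicate 1). The activation call became 2 by DESeq2, 0 without the series term, 4 with the oligodendrocyte and 4 with the endothelial and mural level, 0 with the astrocyte level, and 0 to 4 with a sample left out.

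Over all genes, calls higher and lower were 513 and 926 without a filter, 50 and 163 without the series term, 163 and 202 in series 22 alone, and 772 and 777 with the endothelial and mural level. With the astrocyte level they were 128 and 572, with the oligodendrocyte level 429 were higher, with the choroid plexus level 584 were lower, and left-out samples gave 130 to 493 and 209 to 719. Genes with an adjusted p under 0.05 numbered 39 by DESeq2, 58 by the likelihood-ratio test, 334 without a filter, 1 with filterByExpr, 13 in series 22 alone, 59 and 2 with the endothelial and mural and the astrocyte levels, and 0 to 15 with a sample left out. No paired analysis was possible because the labels give no replicate numbers that tie samples of the genotypes together.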
